A study of Mus musculus with 6 samples.

Results

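AP-1 is a family of dimeric transcription factors built from Jun and Fos proteins, with ATF and BATF proteins as further partners, and its subunit genes are described here in mouse lung tumour cells depleted of the kinase MKK4. The members were 10 genes, Jun, Junb, Jund, Fos, Fosb, Fosl1, Fosl2, Atf2, Atf3 and Batf3, taken with every probe set that the platform annotation pairs with exactly 1 of them. They held 18 of the 45101 probe sets, and 10 of the 18194 genes measured. RNA came from 6 cultures of 393P, a mass population of cells grown out of a primary lung tumour of p53R172H∆g/+ K-rasLA1/+ mice, so all cultures share these alleles. There were 3 cultures with a vector expressing short hairpin RNA (shRNA) against MKK4 and 3 with a control vector, which the series design calls scrambled. Each was hybridised to a 1-colour Affymetrix array, labelled with biotin. The labels describe delivery both by retroviral infection and by lipid transfection, and do not say whether the cells were cloned afterwards. Because the labels leave this open, each group is treated here as 1 cell population, and p-values measure the spread between its cultures.

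All these proteins carry a basic region that contacts DNA and a leucine zipper that pairs them. Jun proteins pair with themselves, with Fos proteins or with ATF proteins, whereas Fos proteins need another partner, chiefly from the Jun group. MKK4, encoded by Map2k4, activates the kinases JNK and p38; JNK phosphorylates c-Jun in its activation domain, and both JNK and p38 phosphorylate ATF2. The Jun gene is itself a known AP-1 target, since Jun and ATF2 dimers bind sites in its promoter. The comparison asks how much of each subunit's transcript is present when MKK4 is depleted. It says nothing of phosphorylation or protein, which the arrays do not measure.

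The Jun promoter is shown because it is the best known case of this feedback. It covers 250 bases before and 50 after the RefSeq start of Jun at chr4:95052173-95052472 of GRCm38.p6, minus strand, and the 2 matches to the sites searched are in capitals.

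Jun promoter: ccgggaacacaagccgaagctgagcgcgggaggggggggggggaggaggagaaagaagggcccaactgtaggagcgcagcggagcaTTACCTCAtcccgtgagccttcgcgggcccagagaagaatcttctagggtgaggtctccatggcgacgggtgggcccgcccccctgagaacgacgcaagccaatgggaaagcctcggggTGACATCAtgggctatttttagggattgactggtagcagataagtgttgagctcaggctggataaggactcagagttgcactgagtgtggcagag

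The distal match, TTACCTCA, lies at -164 to -157 from the start, and the proximal match, TGACATCA, at -45 to -38. Searched on both strands, TTACCTCA occurred in 0.889% and TGACATCA in 3.62% of 32851 RefSeq promoters of the same length. A promoter was in the table for 9 of the 10 members, and 1 of these 9, Jun, held either site. Both sites were searched because they are known from the Jun promoter. Their presence there was thus fixed in advance, and the count does not single out Jun. The AP-1 site TGANTCA, present in 7.81% of all promoters, the cAMP response element TGACGTCA, in 1.79%, and the CArG box bound by serum response factor, in 1.63%, were not found in the windows of these 9 members. The motifs do not share letters at the matched positions of Jun. A match describes letters in a window and not binding.

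Median intensity was 92 to 95.8 units per array, and across genes they correlated at r = 0.991 to 0.996. The ratio of 3' to 5' signal, a sign of RNA integrity, was 0.826 to 0.854 in shRNA arrays and 0.837 to 0.853 in control arrays for Gapdh. Bacterial trpnX control probe sets reached 26.4 to 39.5 units, and values near these carry little information. Of the 8 epithelial markers, Krt18, Krt8, Krt19, Cldn4, Epcam and Cdh1 were bright, at 4018 to 14322 units in shRNA cultures and 3858 to 13973 units in control cultures (means), while the lung lineage markers Nkx2-1 (1.38 units in shRNA and 2.32 units in control cultures) and Sftpc (61.9 and 75.8 units in the same order) were dim. Epcam fell by 0.35 on the log2 scale (limma adjusted p = 0.000874) and Cdh1 by 0.14 (0.0182), and Krt19 rose by 0.23 (0.0268), changes no larger than that of Jun; their part in the subunit results was not tested. The 5 measured leukocyte markers averaged 1.09 to 138 units in shRNA cultures and 2.36 to 146 units in control cultures, with Cd68 the brightest and Cd3e and Lyz2 the dimmest. The 4 endothelial markers averaged 27.9 to 345 units in shRNA cultures and 28.3 to 394 units in control cultures, with Kdr the brightest, and the 6 fibroblast markers 14.4 to 188 units and 19.6 to 205 units in the same order. The targeted transcript Map2k4 had 240.1, 295 and 287 units in shRNA cultures, against 700.3, 638 and 597 units in control cultures. Its limma log2 change was -1.21 (SE 0.079, adjusted p = 0.000127).

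Of the 10 subunit genes, Jun, Jund and Fosl2 fell in MKK4 shRNA cultures, none of the others passed the test, and the largest of these falls was 1.31-fold. A fall was called in 3 of 10 members, beside 5.39% of all 18194 genes called lower, 6.36% called higher and 11.8% called in either direction, by limma with an adjusted p under 0.05. Calls were commoner among genes above the median level, at 20.8%, and 9 of the 10 members lie there. The median log2 change was -0.13 over the members and -0.0067 over all genes, and the median size of change 0.15 and 0.10. Intensities of the shRNA and control cultures did not overlap for 3 members that were lower and 2 that were higher, beside 11.3% of all genes apart and lower, 14.6% apart and higher, and 26% apart in either direction; overlap is judged on the intensities as deposited. In bulk cultures, fewer cells expressing a gene and less RNA per cell cannot be told apart.

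**Figure D1:**
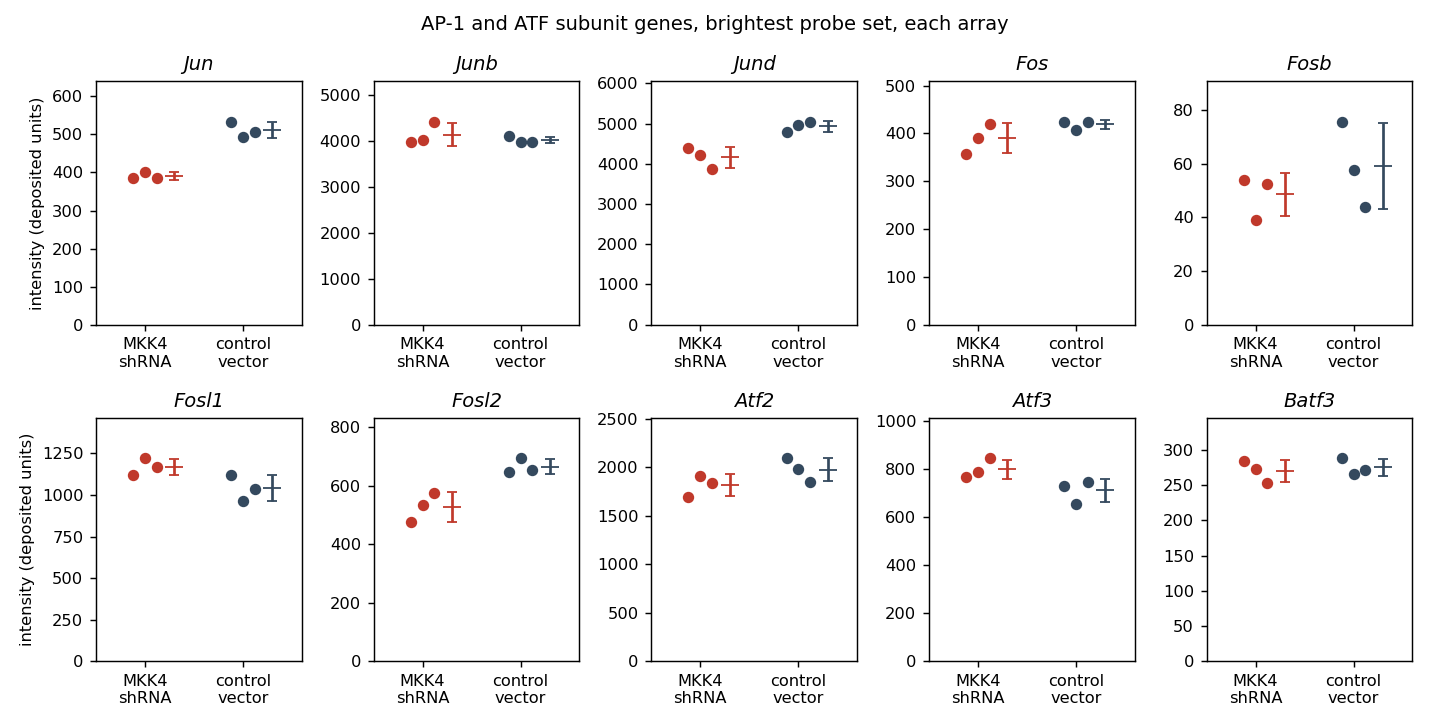
Intensity in deposited units of the brightest probe set of each subunit gene, 1 panel per gene with its own axis from 0, for 3 MKK4 shRNA arrays (red) and 3 control vector arrays (dark blue); points are arrays, and the bar beside them is the mean with its SD. Jun sits at 384 to 402 units in shRNA arrays and 494 to 534 units in control arrays, while the Junb groups overlap.

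Among the Jun proteins, which serve as the partner in nearly every AP-1 dimer, the 3 genes gave different values. Jun, which encodes c-Jun, the namesake substrate of JNK, had 384, 402 and 386 units in shRNA cultures, against 534, 494 and 506 units in control cultures. All 3 shRNA cultures lay below all 3 control cultures, and the gap between the groups was wider than the spread within either. Jun fell 1.31-fold, a log2 change of -0.39 (SE 0.048, 95% interval -0.50 to -0.28, limma adjusted p = 0.00198). The dimmer Jun probe set had 188, 259 and 235 units in shRNA cultures, against 319, 261 and 327 units in control cultures. Its log2 change was -0.41 with a wider interval, -0.70 to -0.13, and limma over all probe sets gave adjusted p = 0.107. Both Jun probe sets thus gave changes of like size, differing by 0.025 on the log2 scale, and the groups did not overlap on either, although replicate 2 of both groups nearly met on the dimmer one. After chromosome centring, an alternative added after seeing the data, the change of Jun was -0.36. The call for Jun passed in 16 of 16 alternative settings, with adjusted p up to 0.0177.

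Jund encodes JunD, often the Jun protein of resting cells and a weaker substrate of JNK. Its bright probe set had 4382, 4221 and 3868 units in shRNA cultures, against 4787, 4968 and 5046 units in control cultures. Every shRNA culture was below every control culture, by a smaller margin than for Jun relative to the spread. Jund fell by 0.27 on the log2 scale (SE 0.054, 95% interval -0.40 to -0.15, limma adjusted p = 0.0162). Its dim probe set 1440265_at went the other way, with 136, 145 and 164 units in shRNA cultures, against 144, 127 and 110.15 units in control cultures, and its groups overlapped. That log2 change was 0.19 (95% interval -0.08 to 0.47, limma adjusted p = 0.459 over all probe sets). The log2 changes of the bright and dim Jund probe sets differed by -0.46, with an exact two-sided permutation p of 0.1, the smallest that 3 against 3 arrays can give. The Jund call passed in 10 of 16 settings and was lost with its probe sets averaged (log2 change -0.039, adjusted p = 0.663), without shRNA replicate 2 (0.0679), control replicate 2 (0.0681) or control replicate 3 (0.0724), with the replicate block (0.0557) and when the prior variance had no trend (0.0828).

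Junb encodes JunB, an immediate early Jun protein that can oppose c-Jun at some promoters. It had 3985, 4023 and 4426 units in shRNA cultures, against 4109.9, 3975 and 3990.2 units in control cultures. The groups overlapped, with shRNA replicate 3 the highest of all 6. The log2 change of Junb was 0.019, with a 95% interval of -0.07 to 0.11 that leaves out the changes estimated for Jun and Jund (limma adjusted p = 0.827). Within arrays, the change of Jun was lower than that of Junb by 0.41 on the log2 scale, and that of Jund lower than that of Junb by 0.29. In both cases the groups did not overlap, and the exact two-sided permutation p was 0.1 each, adjusted p = 0.15 over the 3 pairs of Jun genes. Jun and Jund differed in change by -0.12, with overlapping groups (exact permutation p = 0.3, adjusted p = 0.3).

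The Fos genes encode partners of the Jun proteins. Fosl2, which encodes FRA-2, had 475, 533 and 575 units on its brighter probe set 1437247_at in shRNA cultures, against 646, 693 and 652 units in control cultures. No shRNA culture reached a control culture. Fosl2 fell 1.27-fold on this probe set, a log2 change of -0.35 (SE 0.064, 95% interval -0.50 to -0.20, limma adjusted p = 0.0106). Its other probe set, 1422931_at, had 536, 465 and 504 units in shRNA cultures, against 486, 470 and 500 units in control cultures, and these groups overlapped. That log2 change was 0.028 (95% interval -0.16 to 0.21, limma adjusted p = 0.904 over all probe sets), so the fall of Fosl2 rests on 1 of 2 probe sets of like brightness. Their changes differed by -0.38 on the log2 scale, with an exact two-sided permutation p of 0.1. The call passed in 13 of 16 settings, and was lost without shRNA replicate 2 (adjusted p = 0.0582), without control replicate 2 (0.0519) and with both probe sets averaged (log2 change -0.16, adjusted p = 0.0998).

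Fosl1 encodes FRA-1, a Fos protein without a strong activation domain that is abundant in many Ras-driven tumour cells. It had 1122, 1220 and 1167 units in shRNA cultures, against 1119, 963 and 1035 units in control cultures. Every shRNA culture was above every control culture, but shRNA replicate 1 and control replicate 1 were nearly level. The log2 change of Fosl1 was 0.16 (95% interval 0.05 to 0.27), and limma gave adjusted p = 0.0726. The dimmer Fosl1 probe set gave 0.09 with overlapping groups (limma adjusted p = 0.559 over all probe sets). Fosl1 was called in 3 of 16 settings, namely without the dimmer genes (adjusted p = 0.0343), without control replicate 1 (0.0478) and after chromosome centring (0.0333).

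Fos and Fosb encode the immediate early Fos proteins, which serum and growth factors induce within minutes. Fos had 358, 391 and 420.3 units in shRNA cultures, against 425, 408 and 424 units in control cultures. The groups overlapped through shRNA replicate 3, and the log2 change was -0.12 (95% interval -0.26 to 0.03, limma adjusted p = 0.313). Fosb was dim, with 54.1, 39.2 and 52.5 units in shRNA cultures, against 75.7, 57.8 and 43.9 units in control cultures. These values lie close to the trpnX controls, and the interval of the log2 change, -0.61 to 0.21, allows sizeable change either way (limma adjusted p = 0.572).

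**Figure D2:**
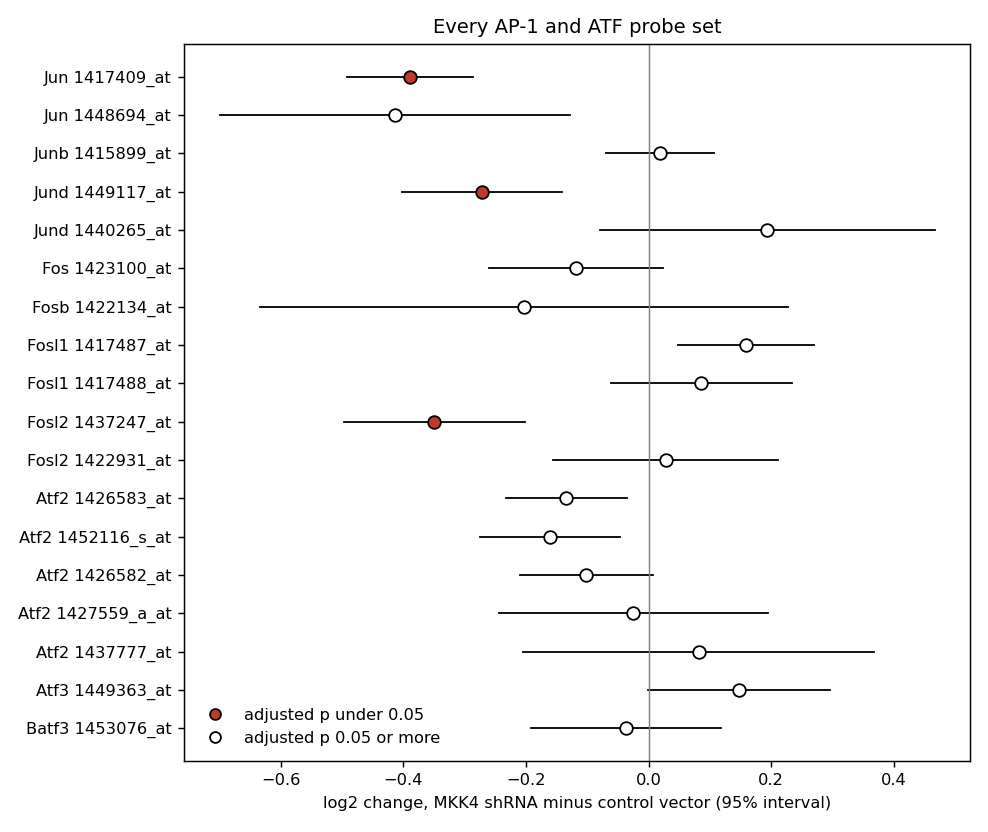
Log2 change, MKK4 shRNA minus control vector, of each of the 18 AP-1 and ATF probe sets with its 95% interval from limma; filled points have an adjusted p under 0.05 over all probe sets. Both Jun probe sets lie left of 0 at -0.39 and -0.41, whereas the 2 probe sets of Jund and those of Fosl2 lie on opposite sides.

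Among the ATF and BATF partners no gene passed the test. Atf2, which encodes a stress-activated partner of c-Jun phosphorylated by JNK and p38, had 1691, 1911 and 1839 units in shRNA cultures, against 2092, 1986 and 1850.4 units in control cultures. The groups overlapped as deposited, but the normalized values gave an exact two-sided permutation p of 0.1, the smallest possible here. The log2 change of Atf2 was -0.13 (95% interval -0.23 to -0.04, limma adjusted p = 0.0878). Of its 5 probe sets 4 gave changes below 0, at -0.16, -0.13, -0.10 and -0.025, and the dimmest gave 0.08 at 58.4 ± 7.34 units in shRNA cultures and 53.8 ± 3.41 units in control cultures (SD, n = 3 each). The 1399 measured genes of chromosome 2, where Atf2 lies, had a median log2 change of -0.07, and centring each chromosome on its median left Atf2 at -0.05 (adjusted p = 0.575). Atf2 was called in 2 of 16 settings, namely without the dimmer genes (adjusted p = 0.0414) and without control replicate 3 (0.0412).

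Atf3, a stress-induced gene whose protein as a homodimer represses transcription, had 768, 787 and 844 units in shRNA cultures, against 731, 656 and 747 units in control cultures. Each shRNA culture was above each control culture as deposited, but the normalized values gave an exact two-sided permutation p of 0.2. The log2 change of Atf3 was 0.15 (95% interval 0.0013 to 0.29), and limma gave adjusted p = 0.203 and did not pass in any of 16 settings. Batf3, a small partner of Jun proteins known for its role in dendritic cell development, had 284, 273 and 253 units in shRNA cultures, against 288, 265 and 272 units in control cultures. Its groups overlapped, and its log2 change was -0.037 (95% interval -0.20 to 0.12, limma adjusted p = 0.815).

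Over the 18 probe sets on their own, 3 were called lower and 0 higher by limma, 7 had an unadjusted p under 0.05, and of all 45037 tested probe sets 2.79% were called lower, 3.57% higher and 6.37% in either direction. The 3 were 1417409_at of Jun, 1449117_at of Jund and 1437247_at of Fosl2, with adjusted p of 0.0031, 0.0312 and 0.0195. Tested over all probe sets in 12 alternative settings, that of Jun passed in 12, that of Jund in 5 and that of Fosl2 in 4. Changes below 0 were given by 11 of the 18 and above 0 by 7. Of the 5 genes with more than 1 probe set, Jun and Fosl1 had all of theirs on 1 side of 0.

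**Figure D3:**
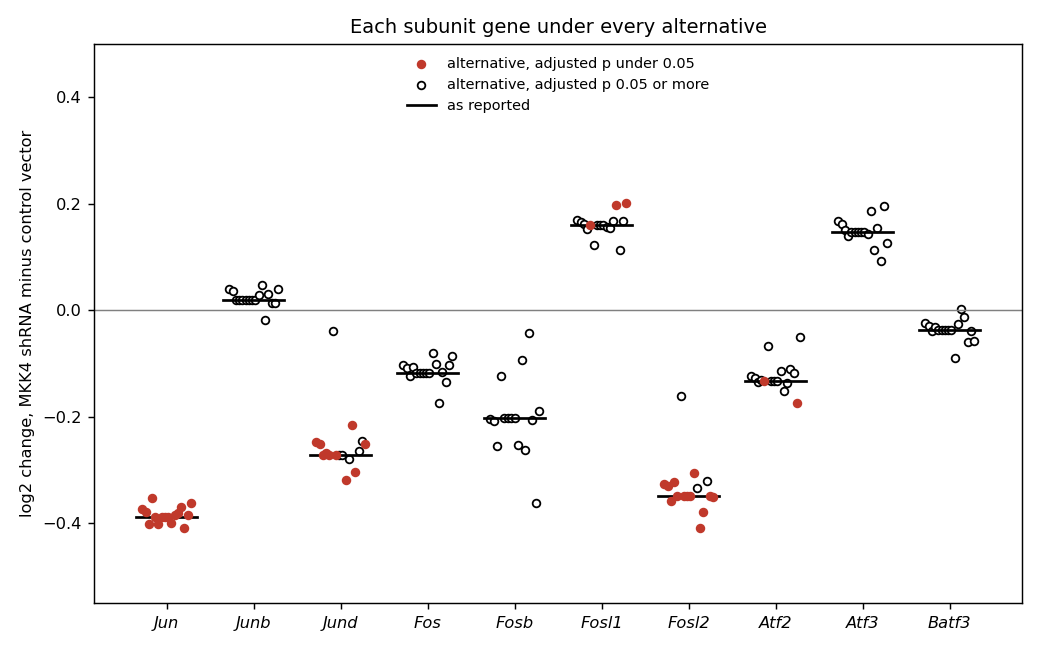
Log2 change, MKK4 shRNA minus control vector, of each subunit gene as reported (line) and under each alternative (points, filled where the adjusted p is under 0.05). Jun stays between -0.41 and -0.35 and is called throughout, while Jund and Fosl2 have points near -0.04 and -0.16 where their probe sets are averaged.

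The kinases and other regulators that act on AP-1 proteins were listed with earlier results of these data known, and of 34 listed 29 were measured. Falls were called in 7 of these, a rise in 1, and none in the other 21, or 27.6% called, with a median log2 change of -0.05. The share called was 11.8% over all genes and 20.8% over genes above the median level. Map2k4, the target of the shRNA, is among the 7. Mapk13, which encodes the p38 delta kinase, fell by 0.63 on the log2 scale (1129 ± 77.2 units in shRNA and 1746 ± 37.5 units in control cultures, SD, n = 3 each). The MAP kinase phosphatase genes Dusp1 and Dusp16 fell by 0.57 and 0.44; the products of both remove phosphate from JNK and p38. Mapk8ip1, which encodes a scaffold of the JNK module, changed by -0.59 on its kept probe set and by 0.09 on another. The gene that rose, named after its value was seen, was Mapk11, encoding p38 beta (0.30, limma adjusted p = 0.0158), whose dimmer probe set gave -0.12. Mapk8 and Mapk9, which encode JNK kinases, gave 0.22 (adjusted p = 0.131) and 0.11 (0.378), and Mapk14, encoding p38 alpha, gave -0.05 (0.566), although a dimmer Mapk8 probe set gave 0.34 (adjusted p = 0.026 over all probe sets). Map2k7 was not analysed here.

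Other genes of the basic leucine zipper (bZIP) class gave more rises than falls. Of 35 listed 33 were measured, and 11 rose, 4 fell and 18 did not pass, or 45.5% called, with a median log2 change of 0.09. Beside this, 6.36% of all genes were called higher, 5.39% lower and 11.8% in either direction. Among genes above the median level the share called was 20.8%. Cebpd, a C/EBP factor of acute phase and fat cell programmes, rose 2.28-fold on its brighter probe set (181 ± 8.43 units in shRNA and 69.9 ± 5.38 units in control cultures, SD, n = 3 each). A dim Cebpd probe set gave a log2 change of 0.34 with overlapping groups (limma adjusted p = 0.466 over all probe sets). Maf, whose protein can pair with Jun and Fos, rose by 1.11 on the log2 scale on its brightest probe set, while its probe sets averaged gave 0.31 and did not pass (adjusted p = 0.0978). Ddit3, which encodes the stress factor CHOP, rose by 0.81 on its brighter probe set. Its dim probe set gave 0.32 with overlapping groups (limma adjusted p = 0.364 over all probe sets). Nfe2l3, a cap'n'collar factor, fell by 0.82, and Creb5, a relative of Atf2, fell by 0.77 on its kept probe set but gave -0.30 with its probe sets averaged (adjusted p = 0.14).

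Jdp2 and Atf4, further partners fixed for description, gave values that depended on the probe set, in sign for Jdp2 and in size for Atf4. Jdp2, a Jun dimerisation partner that represses AP-1 sites, gave a log2 change of 0.18 on its brighter probe set (limma adjusted p = 0.0204). The dimmer one gave -0.21. The Jdp2 call passed in 7 of 16 settings. Those where it was lost included the fits without shRNA replicate 1, 2 or 3 or control replicate 1 or 3. Atf4, the effector of the amino acid response, gave 0.09 on a probe set that can match several transcripts (adjusted p = 0.113), and 0.27 on one that does not (5911 ± 150.1 units in shRNA and 4821 ± 195 units in control cultures, SD, n = 3 each; limma adjusted p = 0.00387 over all probe sets).

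Genes known as AP-1 targets from other systems went both ways. Of 40 listed 36 were measured, and 7 rose, 5 fell and 24 did not pass, or 33.3% called, with a median log2 change of 0.0035. Calls were made in 11.8% of all genes and in 20.8% of genes above the median level. The metallothionein gene Mt2 rose by 1.36 on the log2 scale (3462 ± 324 units in shRNA and 1332 ± 235 units in control cultures, SD, n = 3 each). Csf1, the macrophage colony stimulating factor gene, rose by 1.13, with 0.97, 0.76 and 0.07 on its other probe sets. Mt1 rose by 0.81 on a probe set that can match several transcripts and gave 0.14 on a dim one that does not. Edn1, which encodes endothelin 1, rose by 0.42, but not past the threshold without shRNA replicate 2 (adjusted p = 0.0525). Ptgs2, the gene of cyclooxygenase 2, fell by 0.31 on its brighter probe set (adjusted p = 0.0271). Its dimmer probe set gave -0.099 with overlapping groups (limma adjusted p = 0.689 over all probe sets). The Ptgs2 call passed in 7 of 16 settings. Those where it was lost included the fits without shRNA replicate 1 (0.0865) or 2 (0.108) or control replicate 1 (0.0918) or 3 (0.102). Over all 16 settings its log2 change ran from -0.38 to -0.21, with limma adjusted p up to 0.211.

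**Figure D4:**
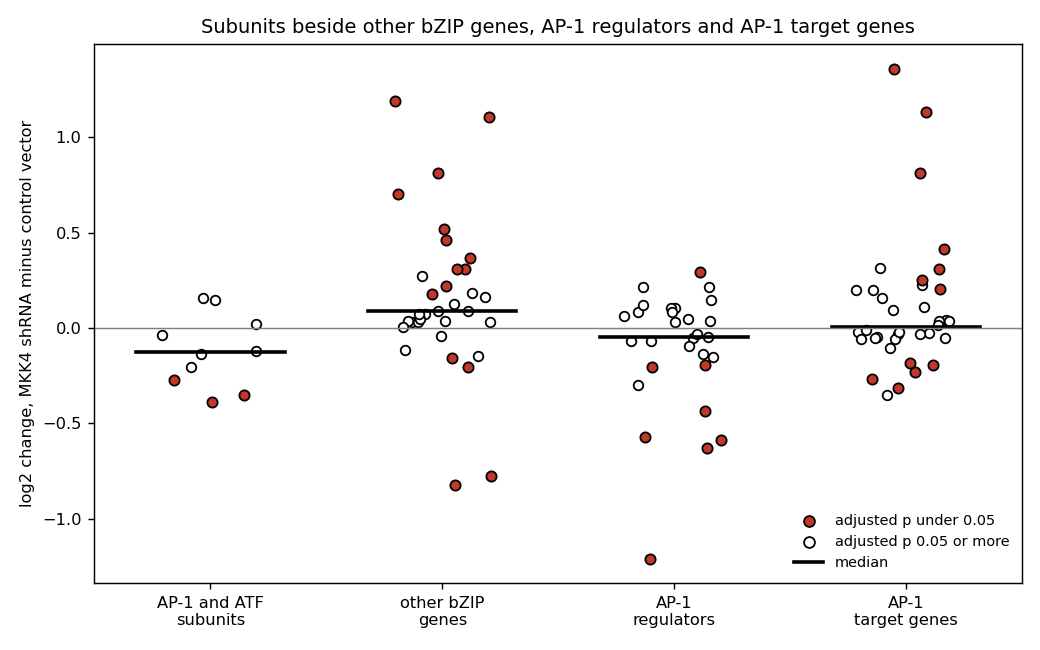
Log2 change, MKK4 shRNA minus control vector, of the 10 subunit genes and the measured genes of 3 further lists (33 other bZIP genes, 29 AP-1 regulators, 36 AP-1 target genes); filled points have a limma adjusted p under 0.05 and bars are medians. The subunit genes lie between -0.39 and 0.16, and the called bZIP genes lie on both sides of 0, 11 above and 4 below.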

How the data were processed

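The authors deposited intensities on a linear scale, 1 per Affymetrix probe set; how probes were summarised, background corrected and normalized is not given in the sources used here. A pseudocount of 16 was added, log2 was taken and arrays were brought to common quantiles (limma 3.58.1, R 4.3.3), so fold changes of dim genes are understated; printed intensities are as deposited. Tests excluded 64 control probe sets. Of the rest, 34945 probe sets were annotated to 1 gene, 932 to several and 9160 to none, and symbols were updated through Entrez numbers (18032 of 18194 genes found in the GRCm38.p6 table). The brightest probe set over all 6 arrays stood for a gene. The group difference was tested by limma (lmFit, then eBayes with trend), Benjamini-Hochberg at 0.05 over all genes, or over all 45037 probe sets where a single probe set is named; single values also by exact permutation. The test was checked on simulated data. Named were all members, Map2k4, up to 5 called genes by size of each other list, and fixed genes. The members, lists and tests were chosen with earlier results of these data known, and the pairs of Jun genes and chromosome centring after seeing the values. The labels' replicate letters were not used to pair the cultures in the main test. The 16 alternatives per gene (15 where a gene is dim) vary the normalization, pseudocount, filter, probe sets, prior variance, block, arrays and chromosome centring. Promoters are from RefSeq, GRCm38.p6.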

Additional observations from a re-analysis of the deposited data

How the results depend on the processing

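The number of arrays and the signal over background limit the precision, most for Fosb. The count of called members was 3; it was 5 of 9 without the dimmer genes (with Fosl1 higher and Atf2 lower), where fewer genes are tested, and 1, Jun, with probe sets averaged. Leaving out 1 array gave 1 to 4, and 1, Jun, without shRNA replicate 2 or control replicate 2. Of the 18 probe sets 1 was called with the replicate block and 1 when the prior variance had no trend, and leaving out 1 array gave 1 to 2. The count of all genes called, 2139, was 1127 with no trend, 1206 with the replicate block and 1152 to 1667 with 1 array left out. Deviations of arrays with the same letter correlated at -0.03, -0.0064 and -0.11, so no likeness by letter was seen. With 3 arrays per group this cannot show that the cultures were unpaired. The replicate block kept Jun and Fosl2 among the members. AP-1 regulators called were 3 with probe sets averaged and 5 without probe sets marked as matching several transcripts, against 8 as reported. AP-1 target genes called were 7 to 10 with 1 array left out, 7 without shRNA replicate 2, against 12. The log2 change of Map2k4 ran from -1.28 to -1.09 and passed in 16 of 16. Signs turned for genes without a call, Junb (-0.019; range -0.019 to 0.047 with 1 array left out) and Batf3 (0.0020; range -0.089 to 0.0020) without shRNA replicate 3, and Mapk14 (0.0039) with probe sets averaged, and for Mapk8ip1 (0.088) and Jdp2 (-0.21) without such marked probe sets and Jdp2 (-0.016) with probe sets averaged. Dusp16 did not pass in those 2 settings (adjusted p = 0.398 and 0.0548 in that order). The cause was not tested.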

Other observations

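Within the bZIP class, several small families had members with unlike values; these genes were chosen after their values were seen. Among the PAR bZIP genes, outputs of the circadian clock, Dbp rose by 0.70 on the log2 scale (227 units in shRNA and 133 units in control cultures; limma adjusted p = 0.000925) and Tef by 0.31 on its brightest probe set (adjusted p = 0.00982), with -0.18 and -0.0024 on its 2 dimmer ones, while Hlf gave -0.15 (adjusted p = 0.366). Among the small Maf genes, whose products lack an activation domain, Maff rose by 0.31 and Mafg by 0.22, and Mafk gave 0.07 (adjusted p = 0.608). Of the cap'n'collar genes, Nfe2l1 rose by 0.52, Nfe2l2, which encodes NRF2, gave 0.0080 (adjusted p = 0.918) and Nfe2l3 fell. Nfil3, a repressor that competes with PAR bZIP proteins for their sites, rose by 0.37 (adjusted p = 0.00196). Differences between the members of these families were not tested.

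The genes whose values over the 6 arrays were most like those of Jun, by Pearson's r of normalized log2 values among 9096 other genes above the median level, were AU018091 (r = 0.998), Eps15 (0.998), Psma3 (0.997), Il24 (0.997) and Abcc4 (0.996). With 3 arrays in each of 2 groups such a correlation mostly follows the group difference, and 775 genes had an r over 0.9. Of the other members, Jund (r = 0.888), Fosl2 (0.884) and Atf2 (0.808) were the most like Jun, and Fosl1 had the lowest r, -0.776.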
